A study of Mus musculus with 14 samples.

Results

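The genes described here are those of the machinery that makes proteins: the ribosomal proteins of the cytosol, the ribosomal proteins of the mitochondrion and the translation initiation factors. They were chosen by gene symbol alone, as probes whose symbol begins with Rpl or Rps, Mrpl or Mrps, or Eif, followed by a digit. Of 10012 probes on the array, 140 met that rule, for 139 gene symbols. They comprised 55 probes of cytosolic ribosomal proteins (36 of the large and 19 of the small subunit), 49 of mitochondrial ribosomal proteins (31 large and 18 small) and 33 of Eif genes, Eif4e2 having 2 probes. The other 3, Rps6ka5, Rps6ka6 and Rps6kb2, share only the letters of the name. They encode protein kinases of the S6 kinase and RSK families, are not ribosomal proteins, and were kept apart.

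RNA was measured on 14 single-colour microarrays, 2 for each of 7 groups, in thioglycollate-elicited macrophages, cells that an irritant broth draws into the peritoneum, from female C57BL/6 mice aged 6 weeks. No gene was altered in any group. One group had no treatment, and the others received lipopolysaccharide (LPS, a bacterial ligand of Toll-like receptor TLR4), poly(I:C) (a double-stranded RNA made in the laboratory, sensed by TLR3), or either stimulus plus a nuclear receptor agonist. The agonist was GW3965, which activates liver X receptors, or GW7845, which activates PPARγ. No group received an agonist alone, and neither dose nor duration of treatment is known from the material used. The series states 2 biological replicates a condition, without saying whether a replicate was 1 mouse or a pool of cells.

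Ribosomes are built from ribosomal RNA and a large set of proteins. Mitochondria keep a ribosome of their own for the few proteins their genome encodes. Translation begins when eIF4E, the protein that binds the mRNA cap, recruits the scaffold eIF4G and the helicase eIF4A, while eIF2 brings the initiator tRNA. Kinases of eIF2, among them PKR (gene Eif2ak2) and PERK (gene Eif2ak3), slow that step when they sense double-stranded RNA or unfolded protein in the endoplasmic reticulum, and the 4E-binding proteins hold eIF4E away from eIF4G. PKR is a known interferon-induced gene, and the mRNAs of cytosolic ribosomal proteins are known for a run of pyrimidines at the 5′ end through which mTOR signalling controls their translation.

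Start-site sequences of members that the results turn on, or that show this run, are given here to show where the families differ in sequence. They are from RefSeq's table for build GRCm38.p6, 5′ to 3′, and each is 30 bases long. In the first 5, the capitals mark the longest run of C and T within 5 bases of the annotated start. In the last, they mark GAAA, any 2 bases and GAAA again, a form of the element bound by interferon regulatory factors.
Rps6 (chr4:86857353-86857382, minus strand): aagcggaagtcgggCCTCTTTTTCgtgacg
Rpl22l1 (chr3:28805493-28805522, plus strand): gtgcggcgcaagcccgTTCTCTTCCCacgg
Eif2s3x (chrX:94212637-94212666, minus strand): ctgccgagcaTTTTCCTTTTCTCTCCgagc
Mrpl45 (chr11:97315701-97315730, plus strand): gtgcccgcgcgCCCCTCCCCTggagagcgt
Mrpl34 (chr8:71464911-71464940, plus strand): gaactacaTTTCCCagaaggcattgtcaag
Eif2ak2 (chr17:78882535-78882564, minus strand): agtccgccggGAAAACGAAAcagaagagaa

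A run of at least 8 pyrimidines lay there in 17 of the 46 cytosolic ribosomal protein genes with a promoter in the table, or 37.0%. It was found in 2 of 42 mitochondrial ones (4.76%, Mrpl3 and Mrpl45) and in 3 of 24 Eif genes (12.5%, Eif2s3x, Eif2s3y and Eif3f), against 9.63% of all 27025 promoters. The run was 10 bases long in Rps6, Rpl22l1 and Mrpl45, 16 in Eif2s3x and 6 in Mrpl34. The GAAA pair so spaced, sought on both strands from 250 bases before to 50 bases after the start, occurred in 7 cytosolic (15.2%), 2 mitochondrial (4.76%) and 3 Eif promoters (12.5%), and in 3.49% of all promoters. The 3 Eif genes were Eif2ak2, Eif3a and Eif2s3x, and in Eif2ak2 the letters lie 19 to 28 bases after the start. A further pair of searches on both strands found GGG, any 5 bases and CC in 63.0% of cytosolic, 66.7% of mitochondrial and 58.3% of Eif promoters, against 50.4% of all, and TGACGTCA in 6.52%, 2.38% and 0%, against 1.88% of all. These matches describe letters in the window, and no binding was measured.

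The authors had scaled each array to a median intensity of 1, so a log2 intensity of 0 is the middle of an array, and values below describe log2 intensities or differences between them. The arrays split into 2 sets of 7, A and B, with 1 array of every group in each. No label or header names these sets: they were inferred from the values, and whether they mark an array lot, a scan or a cell preparation is not known. Set A held replicate 1 of 6 groups and, for GW7845 with LPS, replicate 2. The sets differed in the 10th percentile of intensity (0.137 to 0.271 in set A, 0.0549 to 0.0833 in set B) and in which probes lacked values. Over the 12 stimulated arrays Il6, the interleukin-6 gene, was 10.21 higher than without treatment on the log2 scale, and Ifit1, an interferon-induced gene, 7.46 higher. Of 11 symbols listed as macrophage markers, some of them older names of another in the list, 6 were on the array. Of these, 5 or 6 lay above the array median on every array. The 7 measured B cell markers had a median of 0.07 to 1.20 per array. The lists for T and NK cells, neutrophils, mast cells and eosinophils, erythroid cells and mesothelial cells or fibroblasts all had medians below 0. Some of their summed intensities moved with the groups. For neutrophil markers the sum was 16.7 to 29.0 without treatment, 31.7 to 47.1 with LPS and 24.1 to 51.2 with poly(I:C). With GW3965 it was 18.4 to 20.6 under LPS and 16.6 to 16.9 under poly(I:C), below the stimulus alone in both cases. With GW7845 it was 32.4 to 39.6 and 48.1 to 60.8. For mast cell and eosinophil markers it was 9.01 to 11.0 without treatment and 11.1 to 17.1 over the stimulated groups. Macrophage markers summed to 1141 to 1948 without treatment and 1378 to 2774 with stimulation. The part of these markers in the results was not tested. Bulk RNA cannot tell fewer cells of a type from less RNA per cell.

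Of the 140 member probes, 138 passed the filter on low signal. Rps6ka6 and Eif2s3y, the Y-linked copy of the eIF2 gamma subunit gene in these female mice, did not pass, and Eif2s3y lay between -3.87, the floor set for low values, and -1.93 on every array. Rps15 had no value on any array of set A, and Mrps25 had none on 1 poly(I:C) array, so their differences rest on fewer arrays. A probe was called changed where its Benjamini-Hochberg adjusted p over all 9584 probes tested was under 0.05 in limma. Each comparison was fitted without a block and again with the array set as a block, called the array-set fit. The log2 difference is the same in both fits for a probe with no missing value, and only the error differs. Many ribosomal protein genes have processed pseudogenes of near-identical sequence, and whether a probe also reads those copies was not tested.

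The stimulated against the untreated groups ask how these genes differed with stimulation. The comparison of all 6 stimulated groups includes those with an agonist, so it cannot tell stimulus from agonist. LPS alone and poly(I:C) alone are given further below. Between all 6 stimulated groups and the untreated group, 4 of the 138 members were called higher and 1 lower without a block, where 12.6% of all probes were called in either direction, 7.41% higher and 5.16% lower. The array-set fit called 9 higher and 9 lower, against 25.5% of all probes, 12.9% higher and 12.6% lower. Pooled over the families, the members' shares lay below the background in both fits. The change was uneven by family. Of 55 cytosolic members 1 was called in the array-set fit and none without a block (1 at an unadjusted p under 0.05), of 49 mitochondrial members 1 rose and 5 fell, and of 32 Eif probes 7 rose and 4 fell. In the array-set fit the Eif share called higher thus lay above that of all probes, and its share called lower was close to it. The shares of both ribosomal families lay below. Only 3 members lay above every untreated array on all 12 stimulated arrays and 1 lay below, where 9.21% and 7.6% of all probes did.

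**Figure D1:**
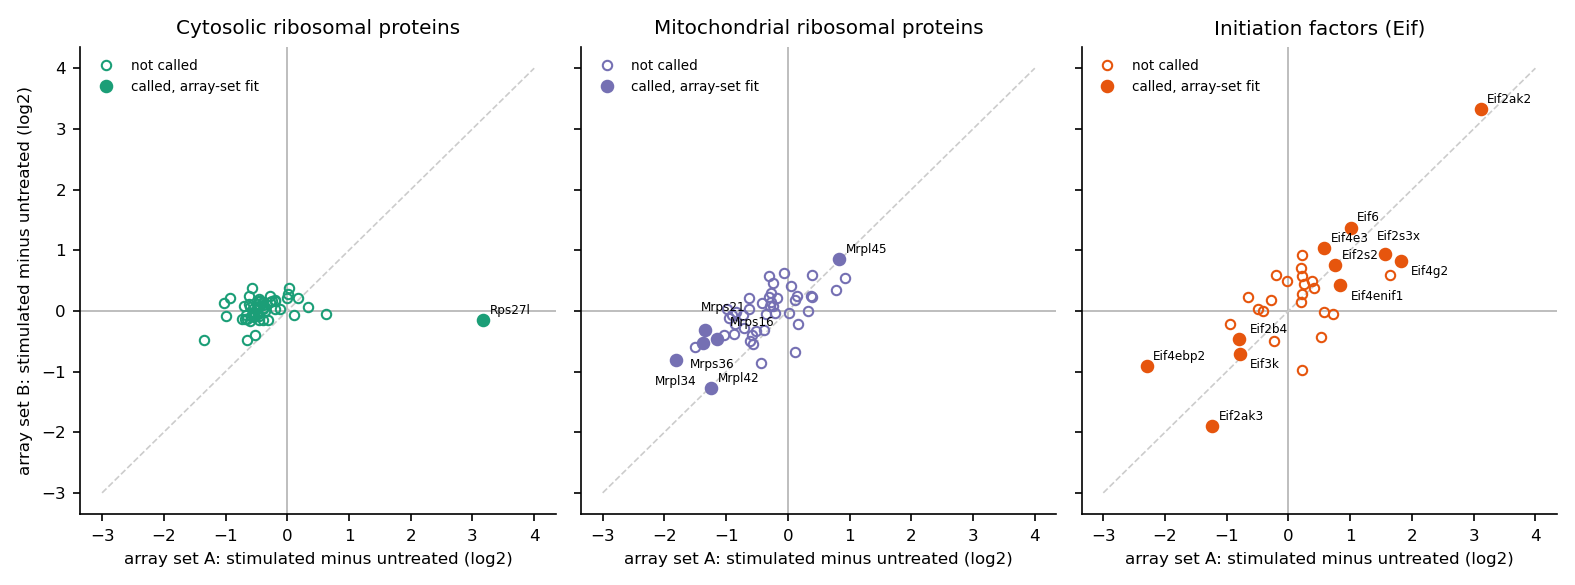
Each point is a member probe, placed by the mean log2 difference of the 6 stimulated arrays from the untreated array within array set A (horizontal axis) and within set B (vertical axis); filled points were called in the array-set fit and the dashed line marks equal differences. Cytosolic members form a tight group left of 0 in set A and around 0 in set B with Rps27l apart at 3.18 in set A, while Eif2ak2 stands at the upper right at 3.11 and 3.33.

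The eIF2 kinases held both the largest rise and one of the largest falls among the members, and they moved in opposite directions. Eif2ak2 (PKR, which is activated by double-stranded RNA) had log2 intensities of -0.77 and -1.57 without treatment, 2.14 and 2.01 with LPS and 2.93 and 2.26 with poly(I:C). With GW7845 it was 2.74 and 1.59 under LPS and 2.74 and 1.84 under poly(I:C), and with GW3965 it was 0.70 and 0.74 under LPS and 2.80 and 2.08 under poly(I:C). Every stimulated array lay above both untreated arrays. The difference was 3.25 (SE 0.48, adjusted p = 0.000509 by limma) with LPS, a 9.51-fold rise, and 3.77 (SE 0.48, adjusted p = 0.000122 by limma) with poly(I:C), a 13.6-fold rise. Its call held under all 18 alternatives run for each stimulus.

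Eif2ak3 (PERK, the eIF2 kinase of the endoplasmic reticulum) was lower with stimulation. It had 2.56 and 2.48 without treatment, 0.69 and 0.73 with LPS and 0.73 and 0.42 with poly(I:C). The arrays with an agonist lay between 0.09 and 2.13, so no stimulated array reached an untreated one. Over all 6 groups the difference was -1.57 (SE 0.41, adjusted p = 0.0203 by limma), a 2.97-fold fall. With poly(I:C) it was -1.95 (adjusted p = 0.0355 by limma), a call lost without a block when any 1 of the 4 arrays compared was left out, with differences of -2.10 to -1.79, and kept in the array-set fit in each of those 4 cases. With LPS it was -1.81, which missed the threshold without a block (adjusted p = 0.0562) and passed it in the array-set fit (adjusted p = 0.00378). The call over all groups was lost without either untreated array when no block was used, and in the array-set fit it was lost without untreated replicate 2 but kept without untreated replicate 1.
The remaining eIF2 kinases passed in neither fit. Eif2ak1 (HRI, the heme-regulated kinase) differed by 0.33 and Eif2ak4 (GCN2, the kinase that senses amino acid shortage) by -0.37 over all stimulated groups, and their arrays overlapped.

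Both measured subunits of eIF2 itself, the factor these kinases phosphorylate, were higher with stimulation. Eif2s3x (the gamma subunit) had 0.20 and 1.25 without treatment, 1.67 and 2.42 with LPS and 1.63 and 2.54 with poly(I:C). The difference over all 6 groups was 1.25 (SE 0.36, adjusted p = 0.0369 by limma), and it was 1.56 in set A and 0.93 in set B. One stimulated array, GW7845 with poly(I:C) in set A at 1.16, lay below the higher untreated value. Without untreated replicate 1 the call was lost in both fits. Without any 1 of 6 stimulated arrays it was lost when no block was used. Eif2s2 (the beta subunit) was 0.76 higher in each set, from 5.84 to between 6.35 and 6.83 in set A and from 5.21 to between 5.70 and 6.27 in set B. It passed only in the array-set fit (adjusted p = 0.00483). Eif2b4, a subunit of eIF2B, the factor that reloads eIF2 with GTP, differed by -0.63 and also passed only in the array-set fit (adjusted p = 0.0449).

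The eIF4 probes, for the factors that bind the cap and unwind the mRNA, all had differences above 0 (8 of 8 probes, median 0.42), where the median over all probes was 0.10. Only Eif4e3 passed in both fits. This cap-binding protein of the eIF4E family had 3.53 and 3.25 without treatment and 4.37 and 4.64 with LPS, a difference of 1.12 (SE 0.31, adjusted p = 0.0383 by limma). With poly(I:C) it had 4.22 and 4.37, a difference of 0.91, called only in the array-set fit (adjusted p = 0.0138). All 12 stimulated arrays lay above both untreated ones, the lowest being GW3965 with poly(I:C) in set A at 3.56. Without a block its LPS call was lost when any 1 of the 4 arrays compared was left out, and after quantile normalization. In the array-set fit it was lost without LPS replicate 2 and without untreated replicate 2.
Eif4g2 (DAP5, a relative of eIF4G that lacks the eIF4E-binding part) had 2.53 in set A and 4.23 in set B without treatment. The stimulated arrays lay between 3.67 and 5.05 in set A and between 4.92 and 5.15 in set B, higher than the untreated array of their own set in every case. The difference of 1.32 passed only in the array-set fit (adjusted p = 0.00381). Eif4e, the main cap-binding protein, differed by 0.39, the helicases Eif4a1 and Eif4a2 by 0.25 and 0.05, Eif4h by 0.39, and the 2 probes of Eif4e2 by 0.45 and 0.57. None of these passed in either fit.

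The binding proteins that act on eIF4E did not move together. Eif4ebp2, an inhibitor of eIF4E, had 2.32 and 0.47 without treatment, 0.77 and -0.75 with LPS and -0.27 and -0.43 with poly(I:C). Within each set every stimulated array lay below the untreated one, but the sets overlapped. The difference over all groups was -1.60 (SE 0.50 without a block). Its adjusted p by limma was 0.0528 without a block and 0.00906 in the array-set fit. Eif4ebp1, its relative, was lower by 0.95 in set A and by 0.21 in set B, and did not pass. Eif4enif1, which carries eIF4E into the nucleus, was 0.63 higher and passed in the array-set fit (adjusted p = 0.0323).
Among the other factors, Eif6, which keeps the large subunit from joining too early, had 3.67 and 3.96 without treatment and 4.76 and 5.30 with LPS. Its difference over all groups was 1.19 (SE 0.41 without a block), called only in the array-set fit (adjusted p = 0.00926 by limma). GW7845 with poly(I:C) in set A lay at 3.43, below both untreated arrays. Eif1a, Eif1ax, Eif1ad, Eif2d and Eif5a differed by 1.12, 0.23, -0.05, -0.36 and 0.20, and none passed. Of the 8 subunits of eIF3, the complex that organises the small subunit, 1 was called, Eif3k, at -0.75 in the array-set fit (adjusted p = 0.025). The others lay between -0.23 and 0.43.

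**Figure D2:**
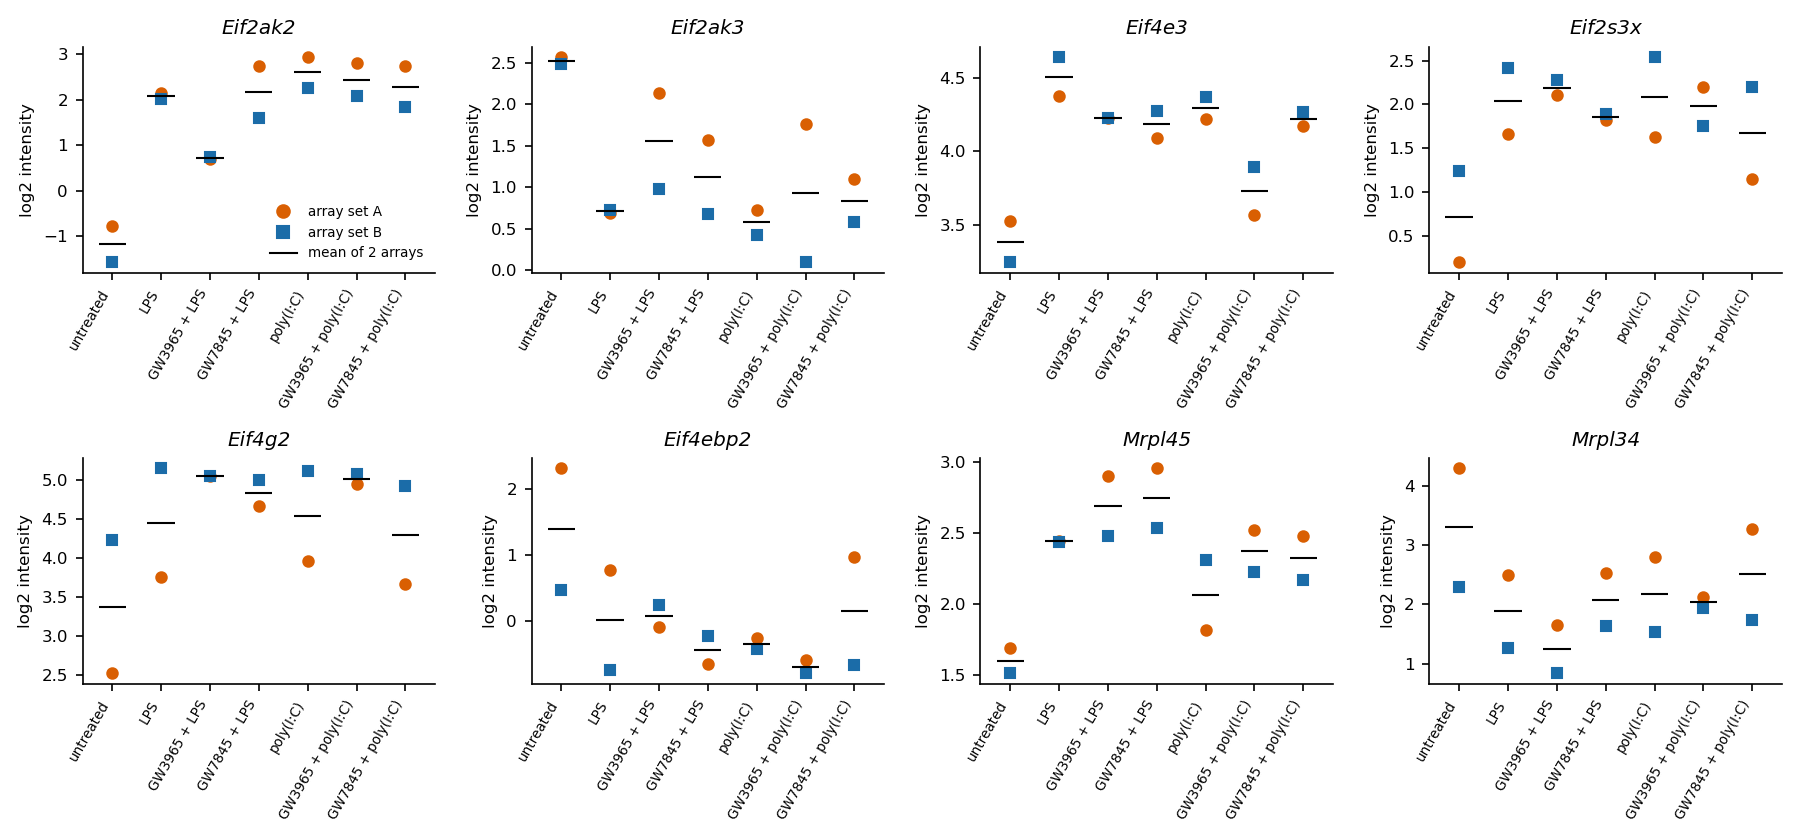
Log2 intensity of 8 members on each of the 14 arrays, by group; circles are set A, squares set B and bars the mean of 2 arrays. Eif2ak2 rises from -0.77 and -1.57 to at least 0.70 on every stimulated array, Eif2ak3 falls from 2.56 and 2.48, and Eif4g2, Eif4ebp2 and Mrpl34 shift with stimulation within each set while the sets lie apart.

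Mitochondrial ribosomal proteins tended lower, with 34 of 49 members below 0 and a median difference of -0.22 over all stimulated groups, where 44.1% of all probes lay below 0. The median was -0.37 in set A and -0.03 in set B. It depends on which untreated array is used: without untreated replicate 1 and without a block it was 0.14, and without untreated replicate 2 it was -0.64. Each of those fits sets the untreated array of 1 set against stimulated arrays of both sets. With the array-set block and 1 array left out at a time, it lay between -0.36 and -0.03. Mrpl45, a protein of the large subunit, went the other way. It had 1.69 and 1.51 without treatment and between 1.82 and 2.96 on the stimulated arrays, and the difference was 0.84 (SE 0.26, adjusted p = 0.0481 by limma). It lay just inside the threshold and lost its call in 16 of the 37 alternatives run, those without either untreated array among them. With LPS alone it was also 0.84 higher, called only in the array-set fit (adjusted p = 0.0479), and with poly(I:C) 0.46 higher, not called.
The 5 that fell were called only in the array-set fit. Mrpl34 had 4.29 and 2.30 without treatment, 2.50 and 1.27 with LPS and 2.81 and 1.53 with poly(I:C). Its difference over all groups was -1.31 (SE 0.53 without a block, adjusted p = 0.00236 in the array-set fit by limma). Mrpl42 had 4.07 and 3.17 without treatment, and its difference was nearly the same in the sets, -1.24 in set A and -1.28 in set B (adjusted p = 0.00579 in the array-set fit). Mrps36, Mrps16 and Mrps21 of the small subunit differed by -0.96, -0.80 and -0.83, with larger differences in set A (-1.38, -1.14 and -1.34) than in set B (-0.53, -0.46 and -0.32). In each of these 5, every stimulated array lay below the untreated array of its own set. Each set has only 1 untreated array, and the fit that picked these members favours this pattern. The share of all probes with it is not given, so it adds no support to the calls. The same holds for Eif4g2 and Eif4ebp2 above. Among members not called, Mrpl36 was lowest at -1.05, and Mrpl3 at 0.73, Mrps2 at 0.56 and Mrpl39 at 0.49 were highest.
The kinases that match the rule by name only did not pass in either fit. Rps6kb2, an S6 kinase, differed by -0.61 over all stimulated groups and Rps6ka5 (MSK1, a kinase of histone H3 and CREB) by -0.16.

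The cytosolic ribosomal proteins had small differences between stimulated and untreated cells, and 54 of the 55 passed in neither fit. Their signal was strong, with 52 of 55 above the array median on each array of set B. Over all stimulated groups 47 of 55 lay below 0, where 44.1% of all probes did. The median was -0.18, where that of all probes was 0.10, and the members' lower and upper quartiles were -0.31 and -0.05. The members' median was -0.46 in set A and 0.03 in set B. LPS alone gave a median of -0.11 and poly(I:C) alone 0.00. Rps6, the small-subunit protein that S6 kinases phosphorylate, had 9.01 and 7.89 without treatment, 8.99 and 8.03 with LPS and 9.34 and 8.31 with poly(I:C). The sets lay further apart than the treatments. The difference was 0.20 (95% interval -0.72 to 1.11) over all groups. Rpl13a, known for a role in silencing inflammatory mRNAs outside the ribosome, differed by -0.56, and Rpl22l1, a relative of Rpl22, by -0.45. Rpl3l, Rpl39l and Rps20 were dim, with medians over the arrays of -3.26, -0.62 and -1.95, and differed by 0.19, 0.20 and 0.29. The lowest difference was that of Rpl3, at -0.92, which rests in part on 1 array described below, and after Rpl13a came Rps28 at -0.54.
Rps27l, a p53-inducible relative of Rps27, was the exception called in the array-set fit, and it rests on 1 array. It had 3.55 on untreated replicate 1 and 5.97 on untreated replicate 2, while the stimulated arrays lay between 6.13 and 7.27 in set A and between 5.06 and 6.25 in set B. The difference was 3.18 in set A and -0.15 in set B. The mean was 1.51 (SE 0.55 without a block, adjusted p = 0.0364 in the array-set fit by limma). Without untreated replicate 1 it turned to -0.15 in the array-set fit, and without a block it was 0.30.

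How the arrays are scaled against each other bears on the 2 ribosomal families. Quantile normalization, which gives every array the same distribution of values, moved the median of all probes from 0.10 to -0.05 over all stimulated groups, from 0.06 to -0.08 with LPS and from 0.10 to -0.08 with poly(I:C). The cytosolic median moved from -0.18 to -0.39, from -0.11 to -0.39 and from 0.00 to -0.47 in the same comparisons, and the mitochondrial median from -0.22 to -0.31, from -0.24 to -0.38 and from -0.27 to -0.35. The Eif median moved from 0.27 to 0.20, from 0.19 to 0.02 and from 0.20 to -0.01. Over all stimulated groups the calls among members went from 4 higher and 1 lower to 3 higher and 9 lower, while over all probes they went from 710 higher and 495 lower to 719 and 766 (15.5% called, 7.99% lower). Of the cytosolic members that setting called 1, Rpl31, at -0.70. With quantile normalization and the array set as a block, a setting chosen after seeing the data, 10 of 55 cytosolic members were called lower and none higher, where 15.0% of all probes were called lower and 11.0% higher. They included Rpl13a at -0.80, Rpl21 at -0.75 and Rpl31. That setting changed the scaling and the block together, and the family as a whole was not tested.

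With LPS alone, 2 members were called higher and none lower without a block (Eif2ak2 and Eif4e3), where 7.8% of all probes were called, 5.21% higher and 2.6% lower, and 7 were under an unadjusted p of 0.05. The array-set fit called 6 higher and 2 lower, where 17.8% of all probes were called, 9.59% higher and 8.18% lower. Those not yet given for LPS were Eif2s3x at 1.32, Eif6 at 1.22, Rps27l at 2.00 (3.72 in set A and 0.28 in set B) and Mrpl34 at -1.41. The array-set fit kept 3 of the 8 calls without untreated replicate 1 and 2 of the 8 without either LPS array.
With poly(I:C) alone, 1 member was called higher and 1 lower without a block (Eif2ak2 and Eif2ak3), where 8.86% of all probes were called, 6.08% higher and 2.78% lower. The array-set fit called 5 higher and 4 lower, where 18.7% were called, 10.6% higher and 8.03% lower. These included Eif4ebp2 at -1.74, Mrpl42 at -1.27, Mrpl34 at -1.13, Eif2s3x at 1.36, Eif4g2 at 1.16 and Eif2s2 at 0.87. It kept 3 of these 9 calls without untreated replicate 1 and 3 without poly(I:C) replicate 2. For the comparison of all stimulated groups it kept 3 of its 18 calls without untreated replicate 1 and 9 without untreated replicate 2. The untreated arrays are shared by all of these comparisons, so the values are given side by side and no agreement is drawn from them.

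Between poly(I:C) and LPS no member was called in either fit, where 0.0104% of all probes were called without a block and 0.0209% in the array-set fit. At an unadjusted p under 0.05 there were no members without a block and 1 in the array-set fit. That member was Mrpl3, a dim probe, at -1.32 (95% interval -3.25 to 0.61 in the fit without a block). Eif2ak2 was 0.52 higher with poly(I:C), with an interval from -0.50 to 1.54. The family medians were 0.08 for cytosolic, 0.00 for mitochondrial and -0.01 for Eif members.

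Both ribosomal families differed between the array sets, and the Eif family did so little. Averaged over the groups, the median cytosolic member was 0.79 higher in set A than in set B (51 of 54 higher), the median mitochondrial member 0.66 higher (42 of 49) and the median Eif probe 0.04 higher (16 of 32), where the median of all probes was 0.49 higher. Within set A the cytosolic median per array was 8.60 without treatment, 8.43 with LPS, 8.50 with poly(I:C) and 8.54 with GW7845 and poly(I:C). It was 7.59 with GW3965 and LPS, 7.61 with GW7845 and LPS and 7.83 with GW3965 and poly(I:C). The 7 arrays of set B lay between 7.34 and 7.74. The array's 95th percentile of intensity moved with it in set A: 63.0, 71.0, 77.8 and 74.0 in the first 4 arrays and 53.1, 54.0 and 59.2 in the other 3, against 38.6 to 53.5 in set B. Its part in the result was not tested.

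**Figure D3:**
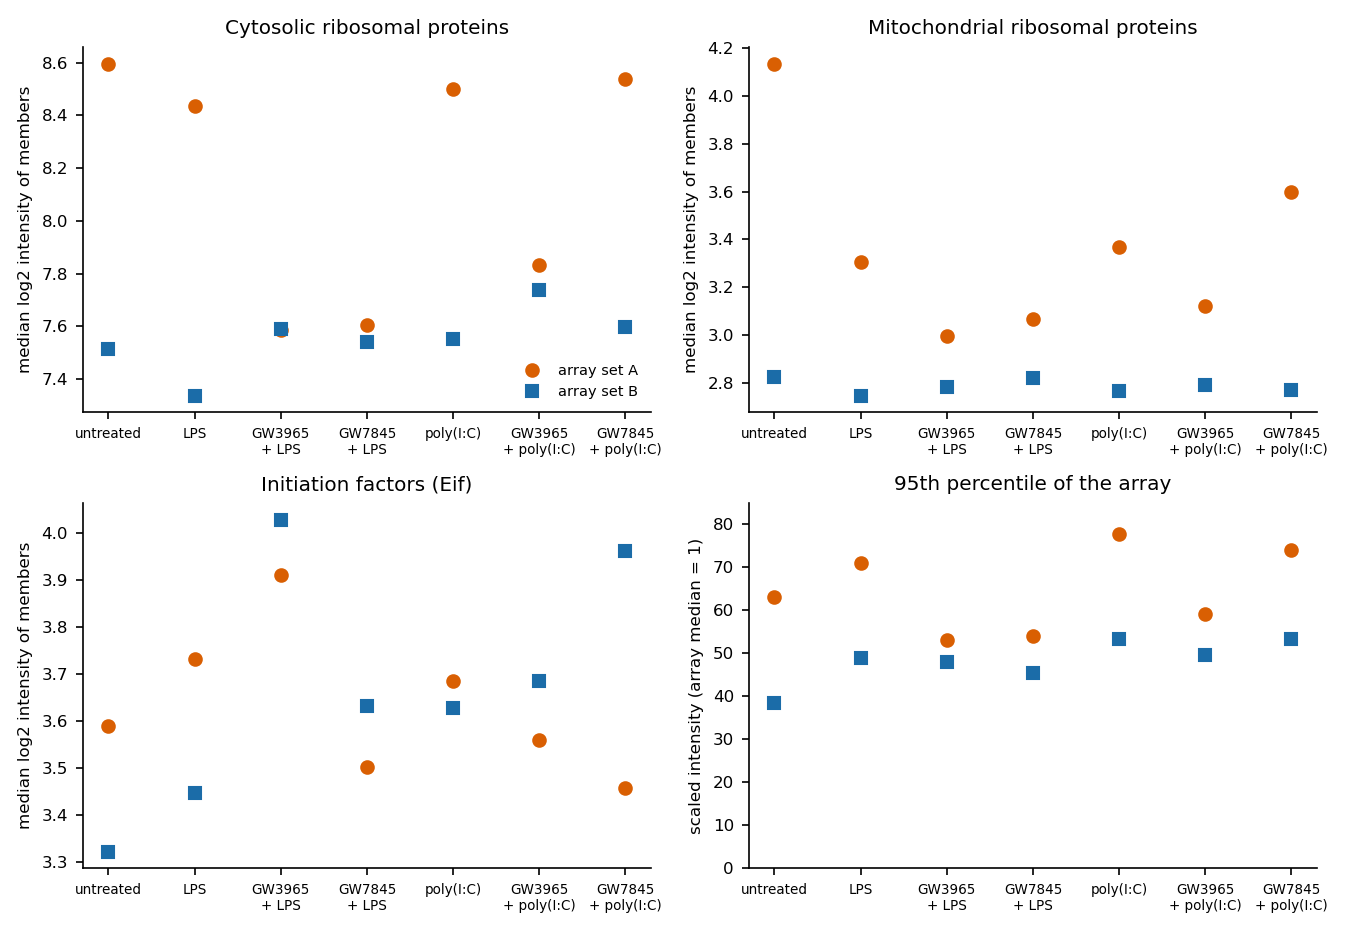
Median log2 intensity over the members of each family on each array, by group, and the 95th percentile of all scaled intensities of the array (lower right); circles are set A and squares set B, and the vertical axes of the first 3 panels do not start at 0. The cytosolic median of set A lies at 8.43 to 8.60 on 4 arrays and at 7.59 to 7.83 on the 3 arrays with the lowest 95th percentile of the set, while set B stays between 7.34 and 7.74.

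The agonist comparisons ask whether activating liver X receptors or PPARγ altered these genes in stimulated cells, and no member was called in any of them in either fit. The background was low too. Without a block the share of all probes called was 0.0313% for GW3965 under LPS, 0.0104% for GW3965 under poly(I:C), 0% for GW7845 under either stimulus, 0.198% for GW3965 averaged over both stimuli and 0% for GW7845 averaged. In the array-set fit it was 0.407%, 0.073%, 0% and 0%, 1.15% and 0.0104%. At an unadjusted p under 0.05 in limma there were 2, 0, 0, 0, 1 and 0 members without a block and 9, 3, 2, 1, 12 and 1 in the array-set fit, in the same order.

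The family medians under an agonist differed between the sets. Cytosolic members had a median of -0.29 with GW3965 under LPS, but it was -0.64 in set A and 0.07 in set B. It was -0.25 with GW3965 under poly(I:C) (-0.69 and 0.23), -0.31 with GW7845 under LPS (-0.60 and 0.03) and 0.06 with GW7845 under poly(I:C) (-0.07 and 0.17). After quantile normalization the 4 medians were -0.04, 0.08, 0.04 and 0.11. The lower cytosolic medians were those of set A, in the 3 arrays whose 95th percentile was also low. They were not seen in set B or after that scaling. All 3 arrays had an agonist, so array intensity and agonist cannot be told apart on them, and the cause was not tested. Mitochondrial members followed the same course as the cytosolic ones, with medians of -0.18, -0.08, -0.15 and 0.13. Eif members had 0.05, 0.00, -0.01 and 0.05.

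**Figure D4:**
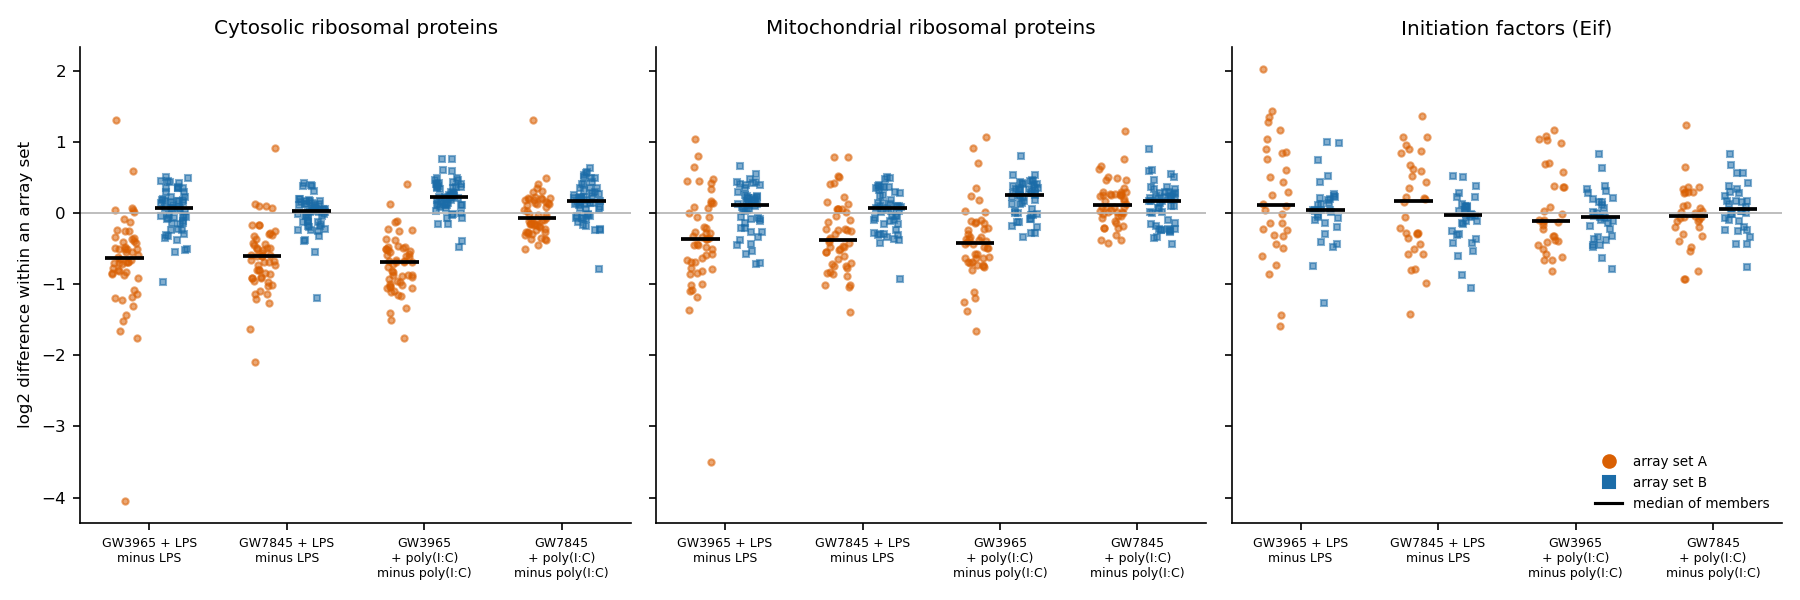
Log2 difference of each member between the array with an agonist and the array with the stimulus alone, within set A (circles) and within set B (squares), for 4 agonist comparisons; bars are medians over members and the horizontal jitter carries no meaning. In 3 of the comparisons the cytosolic median lies at -0.60 to -0.69 in set A and at 0.03 to 0.23 in set B.

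Eif2ak2 was the member with the clearest lower level under GW3965 with LPS, though it was not called. Its 0.70 and 0.74 lay below the 2.14 and 2.01 of LPS alone, a difference of -1.35 (95% interval -2.38 to -0.33) with -1.44 in set A and -1.27 in set B. The unadjusted p was 0.0134 without a block and the adjusted p 0.103 in the array-set fit by limma. Under poly(I:C) the difference with GW3965 was -0.16 (95% interval -1.18 to 0.87). The difference between those 2 effects was -1.20 (95% interval -2.64 to 0.25, unadjusted p = 0.0983 by limma), with -1.31 in set A and -1.08 in set B. In the array-set fit its unadjusted p was 0.0167 and its adjusted p 0.999 by limma. It was not called in either fit, where 0% of all probes were called for that difference between effects, so the effect is not shown to depend on the stimulus. With GW7845 it differed by 0.09 under LPS and by -0.31 under poly(I:C). Eif2ak3 was 0.84 higher with GW3965 under LPS, by 1.44 in set A and 0.24 in set B, and Eif4e3 was 0.56 lower with GW3965 under poly(I:C), and neither was called.
Of the ribosomal proteins, Rpl22l1 differed by -1.05 with GW3965 under LPS (-1.13 and -0.96 in the sets) and by -0.82 under poly(I:C) (-1.76 and 0.11). Rpl27, of the large subunit, differed by -0.70 and -0.74. Averaged over both stimuli, GW3965 gave -0.42 for Eif4e3, -0.51 for Mrpl20 and -0.41 for Mrpl13, close to the same in the sets, while Eif3d (0.52), Eif3c (0.63), Mrps2 (0.59) and Mrpl27 (-0.67) differed mainly in set A. Mrps22 was -0.60 with GW3965 under LPS (-0.62 and -0.57). The kinase gene Rps6ka5, near the floor, was 1.63 higher there, by 3.27 in set A and 0.00 in set B. A pair of large differences came from a single array, GW3965 with LPS replicate 1. Rpl3, which lines the catalytic centre of the ribosome, was 2.98 there and 5.89 to 7.73 on the other 13 arrays, and Mrpl36 was -2.50 there and -1.51 to 1.81 elsewhere. When GW3965 with LPS replicate 2 was left out of the array-set fit, so that this array stood alone for its group, 3 members were called lower under LPS: Rpl3, Mrpl36 and Eif2ak2, where 1.12% of all probes were called. Averaged over both stimuli 4 were called, these and Rpl27, where 2.37% of all probes were. Without GW3965 with poly(I:C) replicate 2, Rpl22l1 was called at -1.32 in that average, where 0.722% of all probes were. A fit with 1 array in a group assumes that this array varies like those of the other groups. Under GW7845, Rpl13 of the large subunit was lower than its stimulus alone in both sets, at -0.65 with poly(I:C) and -0.60 averaged over both stimuli (95% interval -1.22 to 0.02), and Rpl5 was 0.70 lower and Mrps31 0.64 higher with LPS. The GW7845 effect on Mrps25 was 1.07 lower under LPS than under poly(I:C), with 1 array missing (0% of all probes were called). None of these was called.

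The other genes of the pathway give the setting in which the members lay. These lists were counted for all stimulated groups against untreated, with calls without a block first and in the array-set fit second. Of 20 genes of the integrated stress response, the programme that phosphorylated eIF2 sets off, 7 rose and 0 fell, then 10 and 0, and the median difference was 0.78. They included Slc7a11 (the cystine transporter, 2.78), Mthfd2 (2.35), Asns (asparagine synthetase, 2.32), Cebpb (2.14) and Ppp1r15a (GADD34, which directs eIF2 dephosphorylation, 1.83), and Atf4 itself (0.74) passed only in the array-set fit. Of the 20, 5 lay below 0 and did not pass, among them Ddit3 (CHOP) at -0.66 and Cebpg at -0.68. Several of those that rose are also known as direct targets of TLR signalling.
Of 27 probes for 25 genes of the mTOR pathway, which controls ribosome production, 0 rose and 4 fell, then 1 and 8, with a median of -0.39. The 4 were the 2 probes of Deptor (an mTOR inhibitor, -3.93 and -3.54), Sesn1 (a further inhibitor, -3.15) and Rragd (a GTPase that helps to activate mTOR, -1.60). In the array-set fit Nprl2 (-1.42), Mknk1 (-1.09), Akt1 (-0.91) and Lamtor2 (-0.82) fell as well, and Ddit4, an inhibitor of mTOR, rose by 0.92. The list thus moved in members that inhibit the pathway and in members that activate it.
Of 10 aminoacyl-tRNA synthetases 2 rose and 0 fell, then 3 and 0, with a median of 0.44. Wars, for tryptophan, rose by 2.03 and is a known interferon-induced gene, and Rars, for arginine, rose by 0.94. Of 42 ribosome biogenesis genes 2 rose and 0 fell, Wdr43 (1.43) and Rrs1 (1.58), then 4 rose and 1 fell, with a median of 0.12, and the one that fell was Myc at -1.04. Of 14 genes of elongation and termination 1 rose, the release factor Gspt1 at 1.11, and 0 fell, then 3 and 2, with a median of 0.06. Of 8 other genes of mitochondrial translation none passed without a block (3 at an unadjusted p under 0.05), then 0 rose and 2 fell, with a median of -0.37. The background for all of these was 12.6% of probes called without a block and 25.5% in the array-set fit.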

How the data were processed

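The authors deposited 1 linear intensity per probe and array, scaled to an array median of 1; how they were scaled, and with which scanner and software, is not given in the sources used here. Intensities were raised to the 5th percentile of positive values (0.0686, -3.87 on the log2 scale) and log2 transformed. Probes above their array's 20th percentile on at least 2 of the 14 arrays were kept (9584). Group means were fitted to all arrays in limma 3.58.1 (R 4.3.3) with an intensity trend, without a block and with the array set as a block, two-sided, with Benjamini-Hochberg adjustment. The code was tested on 5 simulations of LPS against untreated, with spreads taken from these data. Without a block it called 0.8% of simulated 2-fold and 23.4% of 4-fold changes, and in the array-set fit 13.6% and 64.8%. Most simulated 2-fold changes were thus missed in both fits, so a member not called may still have changed. The simulations changed a smaller share of probes than was called in the data, which affects the adjusted threshold. They covered only this comparison, so the rates are not those of the other comparisons. Symbols came from the platform table (8983 probes with 1 symbol, 1 with several, 1028 with none), and all 140 members matched RefSeq. Each sample's group came from its title. Named members were those called in either fit, a fixed list, and the largest differences per family and direction, of which agonist comparisons print those under an unadjusted p of 0.05. Members, lists and markers were chosen with earlier results of these data known, so p-values describe them and do not test the choice. Nothing says the replicates came from separate animals, so p-values measure the spread between these samples. The number of arrays limits precision. Samples sharing a replicate number did not deviate together throughout (correlations of -0.54 to 0.67 over 42 pairs), unlike those sharing an array set (0.35 to 0.67). The sets were inferred from these same values, so the correlations within them do not test the sets. With 2 arrays a group, the deviations of a group mirror each other, so the pairs are not independent. Alternatives were another floor, a pseudocount of 0.1, other filters, quantile normalization, no trend, the replicate number as a block, and each array left out.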

Additional observations from a re-analysis of the deposited data

Results flagged for a closer look

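The median difference over Eif members with GW3965 had opposite signs under the 2 stimuli. Under LPS it was 0.11 in set A and 0.05 in set B, and under poly(I:C) it was -0.11 in set A and -0.047 in set B. All 4 are medians over member differences. The pooled SD of the array medians of this family, 0.18, is a different measure. The array medians with LPS and with GW3965 and LPS were 3.73 and 3.91 in set A and 3.45 and 4.03 in set B. With poly(I:C) and with GW3965 and poly(I:C) they were 3.68 and 3.56 in set A and 3.63 and 3.68 in set B. By array medians the sign under poly(I:C) thus differed between the sets. The difference was not tested.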

How the results depend on the processing

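Eif2ak2 kept its call in every alternative run for LPS, poly(I:C) and all stimulated groups. Members called for LPS (2), poly(I:C) (2) and all 6 stimulated groups (5) numbered 8, 9 and 18 with the array set as a block, and 1, 1 and 1 without an intensity trend. The replicate number follows the array set in 6 of 7 groups and is reversed in GW7845 with LPS. The fit with a replicate block is therefore given only here: 4, 4 and 12, with no agonist call. Quantile normalization gave 4 for poly(I:C) and 12 for all groups, where 10.3% and 15.5% of all probes were called. With the array-set block it gave 16, 19 and 36 of 138, where 17.6%, 19.1% and 26.0% were called. The Eif median was -0.0080 for poly(I:C) under both quantile settings (0.20 otherwise), 0.37 for LPS within set B and 0.18 for GW7845 under LPS within set A. Rps27l over all groups turned to -0.15 without untreated replicate 1 in the array-set fit.
Leaving out 1 array gave 1 to 2, 1 to 3 and 1 to 8 calls for LPS, poly(I:C) and all groups without a block, the lowest without untreated replicate 1 in each, and also without either array of the stimulus for LPS and poly(I:C). For all groups 2 were left without LPS replicate 2, either array of GW3965 with LPS or GW7845 with LPS replicate 1, 3 without GW7845 with LPS replicate 2, poly(I:C) replicate 2 or either array of GW3965 with poly(I:C), and 8 without GW7845 with poly(I:C) replicate 1. With the array-set block the counts were 2 to 5, 3 to 8 and 3 to 25. Those for all groups were 3 and 9 without untreated replicates 1 and 2, 25 without GW3965 with LPS replicate 2, and 15, 16, 17 or 18 without any 1 other array. There, GW3965 gave 0 to 3 under LPS, 0 to 4 averaged and 0 to 1 for its difference between stimuli. Cytosolic medians ranged from -0.68 to 0.42, -0.60 to 0.59 and -0.76 to 0.35 for the same 3 comparisons, from -0.49 to 0.70 for poly(I:C) against LPS, from -0.76 to 0.30 for GW3965 and from -0.56 to 0.70 for GW7845 under poly(I:C). With the array-set block these were -0.36 to 0.12, -0.29 to 0.25, -0.46 to 0.03, -0.17 to 0.37, -0.56 to 0.07 and -0.20 to 0.33. The Eif median for LPS ranged from 0.056 to 0.41 without a block and from 0.08 to 0.37 with it. Mitochondrial medians without a block ranged from -0.67 to 0.16, -0.52 to 0.20 and -0.64 to 0.14 for LPS, poly(I:C) and all groups, above 0 without untreated replicate 1 in each, without LPS replicate 2 for LPS and without poly(I:C) replicate 2 for poly(I:C). With the array-set block they ranged from -0.42 to -0.03, -0.43 to -0.0045 and -0.36 to -0.03. Of the values that answer a comparison, 865 stayed within their limits over the alternatives, while 17 moved, 32 became larger in count or newly passed and 19 became smaller in count or no longer passed. The cause was not tested for any change. Signal over background is judged from level alone.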
